A study of Mus musculus with 10 samples.

Results

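Neutrophil granules carry the proteases and antimicrobial proteins of these cells, and 10 genes encoding such proteins were followed through macrophages that had or had not engulfed apoptotic cells. They were taken by symbol from the 55414 genes of the deposited count tables: 4 azurophil granule genes (Mpo, Elane, Prtn3 and Ctsg), 5 specific granule genes (Ltf, Camp, Lcn2, Ngp and Mmp8) and 1 gelatinase granule gene (Mmp9). All 10 were found in both tables. The libraries come from cells sorted by flow cytometry into Eff+ cells, which had taken up apoptotic cells, and Eff- cells, which had not. The wound cells were labelled as macrophages and came from skin wounds of LysMCreER/mTmG mice at day 3, the animals having received tamoxifen over 6 days (3 Eff+ and 3 Eff- libraries). In these mice the lysozyme M gene drives a tamoxifen-inducible Cre that turns the membrane reporter of a cell and its descendants to GFP, and that gene is active in neutrophils and monocytes as well as in macrophages. The culture cells were wild-type bone marrow derived macrophages, grown for 7 days with GM-CSF and sorted after 12 h with labelled apoptotic fibroblasts (2 Eff+ and 2 Eff- libraries). In the column names the Eff- culture libraries carry the letters NOAC, while their labels list apoptotic fibroblasts, so it is unclear whether those cells had met any.

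Granules are filled in the order in which a neutrophil matures in the bone marrow. Azurophil proteins are transcribed at the promyelocyte stage, specific granule proteins at the myelocyte and metamyelocyte stages, and gelatinase granule proteins at the band stage, so that a mature neutrophil keeps the proteins while most of the transcripts have gone. The transcription factors PU.1 and the C/EBP family drive much of this programme. Lcn2 and Mmp9 are also made by macrophages under stimulation.

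Transcripts of 3 specific granule genes (Ngp, Ltf and Lcn2) and of the gelatinase gene Mmp9 were higher in wound Eff+ than in wound Eff- cells, while the azurophil gene Prtn3 did not pass and the other 3 azurophil genes were too low to be tested there. The promoters below are those of Ngp, Ltf and Lcn2, and of Mmp8, Camp and Prtn3, which did not pass there. Each line gives the 250 bases before the start of the gene, 5′ to 3′ on the gene's strand. The sequences come from RefSeq on the GRCm38.p6 build, a table that held 9 of the 10 genes. Mmp9 was the gene without an entry. Capitals mark matches to the C/EBP letters TTGCNNAA (TTNNGCAA on the other strand) and to the PU.1 letters GAGGAA, searched on both strands. A PU.1 match on the other strand reads TTCCTC here, and matches to the different motifs share no base in any window. Ngp (plus strand, chr9:110419558-110419807), Ltf (plus strand, chr9:111019042-111019291) and Lcn2 (minus strand, chr2:32387740-32387989) come first. They are followed by Mmp8 (plus strand, chr9:7558179-7558428), Camp (minus strand, chr9:109849457-109849706) and the azurophil gene Prtn3 (plus strand, chr10:79879417-79879666).
Ngp: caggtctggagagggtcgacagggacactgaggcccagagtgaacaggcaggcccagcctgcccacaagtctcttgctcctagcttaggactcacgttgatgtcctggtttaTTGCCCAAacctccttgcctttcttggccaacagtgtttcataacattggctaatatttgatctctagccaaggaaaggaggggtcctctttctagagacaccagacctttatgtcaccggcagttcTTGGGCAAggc
Ltf: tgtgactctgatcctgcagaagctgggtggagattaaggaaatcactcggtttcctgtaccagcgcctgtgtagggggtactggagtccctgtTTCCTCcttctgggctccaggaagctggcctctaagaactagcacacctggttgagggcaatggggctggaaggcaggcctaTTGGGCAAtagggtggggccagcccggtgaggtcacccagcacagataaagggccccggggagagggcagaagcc
Lcn2: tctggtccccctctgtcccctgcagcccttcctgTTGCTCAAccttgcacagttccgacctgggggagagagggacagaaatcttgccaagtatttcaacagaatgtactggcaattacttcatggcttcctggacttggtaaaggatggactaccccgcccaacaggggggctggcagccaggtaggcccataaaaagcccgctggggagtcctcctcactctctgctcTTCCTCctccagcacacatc
Mmp8: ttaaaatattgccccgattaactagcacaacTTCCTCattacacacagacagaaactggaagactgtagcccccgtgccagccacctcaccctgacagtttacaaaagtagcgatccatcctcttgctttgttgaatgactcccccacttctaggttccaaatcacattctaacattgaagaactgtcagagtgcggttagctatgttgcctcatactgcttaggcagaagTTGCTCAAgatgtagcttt
Camp: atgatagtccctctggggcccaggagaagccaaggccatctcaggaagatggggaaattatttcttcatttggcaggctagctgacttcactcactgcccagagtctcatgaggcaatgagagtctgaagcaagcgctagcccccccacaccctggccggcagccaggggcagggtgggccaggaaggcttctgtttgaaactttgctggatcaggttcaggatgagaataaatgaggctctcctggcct
Prtn3: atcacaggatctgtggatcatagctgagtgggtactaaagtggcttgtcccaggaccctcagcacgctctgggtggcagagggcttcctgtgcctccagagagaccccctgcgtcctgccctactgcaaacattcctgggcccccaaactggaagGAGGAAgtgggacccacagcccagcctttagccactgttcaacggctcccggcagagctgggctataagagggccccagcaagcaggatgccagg
The C/EBP letters were found in 4 of the 5 specific granule promoters and in 0 of the 4 azurophil promoters, against 9.57% of all 32817 promoters in the table. Ngp held them at 2 places, the nearer one 11 to 4 bases before the start, and Mmp8 held them 19 to 12 bases before it. The PU.1 letters were found in all 4 azurophil promoters and in 3 of the 5 specific ones (Ltf, Lcn2 and Mmp8), against 23.3% of all promoters. In Prtn3 they lay 95 to 90 bases before the start, and the Camp window held neither motif. These letters were chosen with the values known, and a match describes the window only.

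Wound libraries held 39735437 to 57308823 counts and culture libraries 17622740 to 27261880. In culture, counts fell on 35649 (Eff+) and 44836 (Eff-) genes in the libraries numbered 1, against 19649 and 18171 in those numbered 2. In the wound, Lyz2, the gene of the Cre locus, had 159484 (Eff+) and 345046 (Eff-) counts in the libraries numbered 2 and 160 to 413 in the other 4, so those numbered 2 stand apart. The near-identical Lyz1 had 8409 to 25107 counts in Eff+ and 25266 to 58658 in Eff- libraries, and reads divided between the pair are uncertain. All 8 macrophage markers of a list were detected in every wound group. They took 0.270 to 0.350% of counts in Eff+ and 0.606 to 0.845% in Eff- libraries, and Adgre1, C1qa, C1qb and Mrc1 fell. Markers of mature neutrophils, 14 genes such as S100a8, S100a9, Mxd1 and Stfa2l1, took 3.69 to 4.74% of counts in Eff+ and 0.695 to 1.30% in Eff- libraries. All 14 rose, with a median log2 fold change of 2.62 against -0.03 for all tested genes. None of them was at 0 in either group. Their part in the granule gene results below was not tested, and in such pooled RNA more cells of a type and more RNA per cell cannot be told apart.

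**Figure D1:**
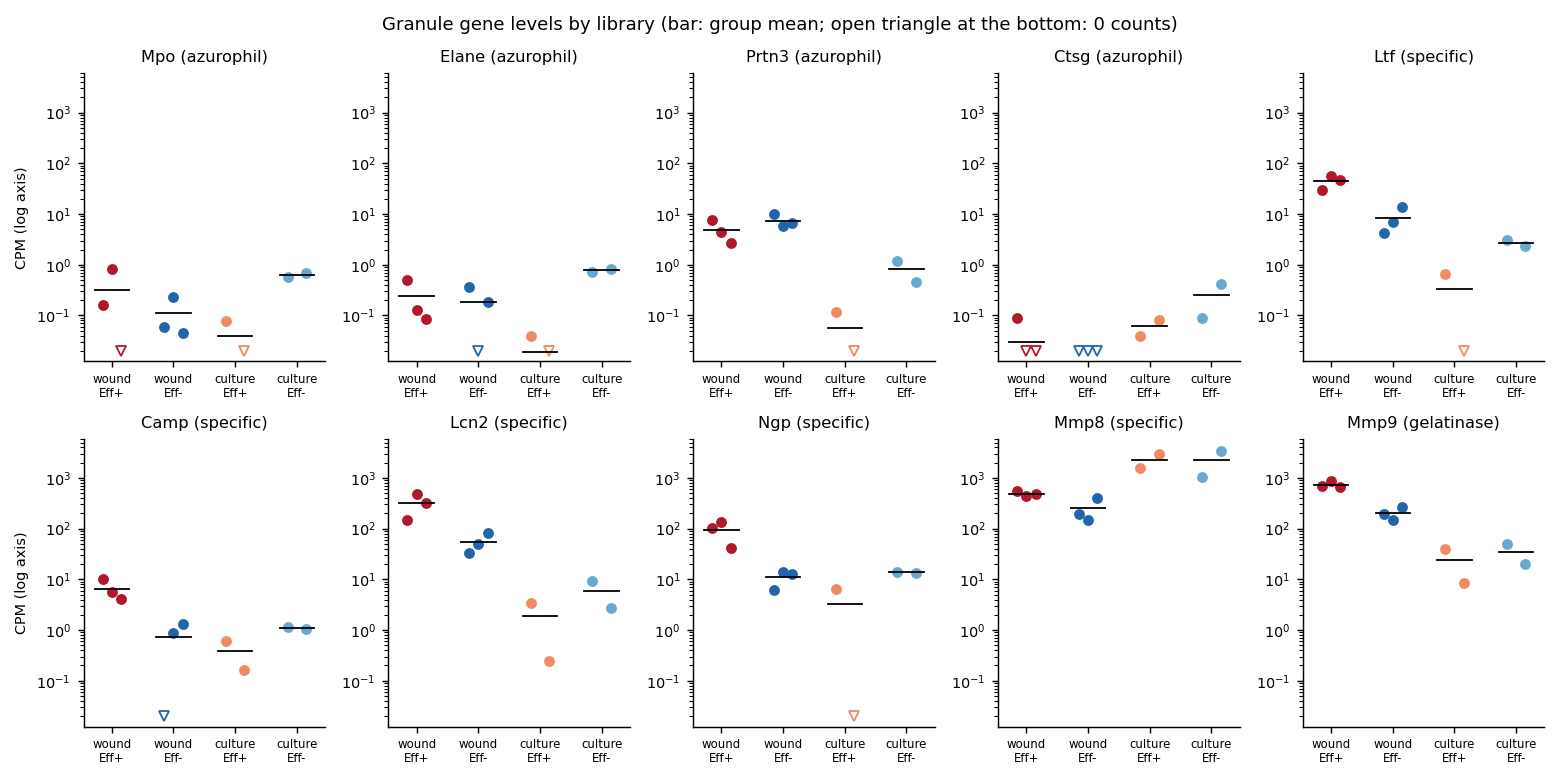
Level of each granule gene in every library, as CPM (counts scaled to library size) on a log axis, with a bar for the group mean and an open triangle for a library at 0 counts. Ltf, Camp, Lcn2, Ngp, Mmp8 and Mmp9 sit higher in all wound Eff+ libraries than in all wound Eff- libraries, while Mmp8 exceeds 1000 CPM in every culture library.

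The first question was how granule transcripts differ between wound macrophages that had engulfed apoptotic cells and those that had not. Of the 10 genes, 7 had enough counts to be tested in the wound, and 4 of these rose in Eff+ cells and 0 fell, where 11.2% of all 14908 tested genes were called by edgeR's quasi-likelihood test at an adjusted p under 0.05 (7.39% higher and 3.79% lower). They were the specific granule genes Ltf, Lcn2 and Ngp and the gelatinase gene Mmp9. In 6 of the 10 genes every Eff+ library was above every Eff- library, and in 0 every one was below. Among tested genes 36.8% were without overlap (18.7% above and 18.1% below). Mpo, Elane and Ctsg, whose groups overlapped, were too low to be tested and are not part of those shares. CPM are counts scaled to library size with the trimmed mean of M-values (TMM), and fold changes are Eff+ over Eff-.

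Among the specific granule genes, Ngp (neutrophilic granule protein, chromosome 9, 110248815 to 110252080, GRCm39), a cathelicidin-related protein of mouse neutrophils, had the largest called change. It was at 101.5, 135.6 and 41.2 CPM in Eff+ libraries 1, 2 and 3, against 6.20, 14.3 and 12.7 CPM in Eff- libraries. The lowest Eff+ library was still above the highest Eff- library. The means were 92.8 ± 47.8 and 11.1 ± 4.29 CPM (SD, n = 3 each), an 8.39-fold difference (log2 fold change 3.07, SE 0.49, edgeR adjusted p = 0.013).

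Lcn2, which encodes lipocalin 2, a protein that withholds iron from bacteria by binding their siderophores (chromosome 2, 32274645 to 32278264), had the highest mean level per kilobase of the called specific granule genes. Eff+ libraries had 146.7, 491.8 and 324.8 CPM, against 33.2, 50.5 and 82.2 CPM in Eff- libraries. Eff+ library 2 was highest and the groups did not overlap. The means of 321 ± 173 and 55.3 ± 24.8 CPM gave a 5.81-fold difference (2.54, SE 0.49, edgeR adjusted p = 0.021).

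Ltf encodes lactoferrin, the iron-binding protein that defines the specific granule (chromosome 9, 110848339 to 110871835). It stood at 29.7, 56.7 and 46.4 CPM in Eff+ libraries, against 4.23, 7.12 and 13.9 CPM in Eff- libraries. Every Eff+ library was above every Eff- library, and the means were 44.3 ± 13.6 and 8.42 ± 4.97 CPM. The difference was 5.26-fold (2.40, SE 0.45, edgeR adjusted p = 0.020).

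Camp encodes the cathelicidin precursor of the antimicrobial peptide CRAMP (chromosome 9, 109676447 to 109678685). Eff+ libraries had 443, 263 and 188 counts (10.02, 5.64 and 4.05 CPM), against 0, 46 and 58 counts (0, 0.875 and 1.33 CPM) in Eff- libraries. The groups did not overlap, and Eff- library 1 had no count. The log2 fold change of 3.16 (SE 1.11) did not pass (edgeR adjusted p = 0.10).

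Mmp8, neutrophil collagenase (chromosome 9, 7558457 to 7568486), was the least changed of the specific granule genes. It was at 543, 441 and 482 CPM in Eff+ libraries, against 197, 149 and 407 CPM in Eff- libraries. Eff- library 3 came close to the Eff+ libraries, although the groups did not overlap. With means of 489 ± 51.4 and 251 ± 137 CPM the log2 fold change was 0.96 (SE 0.35) and did not pass (edgeR adjusted p = 0.12). Without Eff- library 3 it was 1.47 and did pass (adjusted p = 0.028).

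The gelatinase granule was represented by Mmp9, gelatinase B, which cleaves denatured collagen and basement membrane (chromosome 2, 164782700 to 164797770). It was at 683, 886 and 656 CPM in Eff+ libraries, against 198, 152 and 269 CPM in Eff- libraries. The gap between the groups was wider than the range within either of them. The means of 742 ± 126 and 206 ± 59.3 CPM differed 3.59-fold (1.85, SE 0.25, edgeR adjusted p = 0.0098), the smallest adjusted p of the 7 tested genes.

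Of the azurophil genes only Prtn3 could be tested in the wound. Prtn3, which encodes proteinase 3 (chromosome 10, 79710310 to 79719008), was at 7.66, 4.41 and 2.65 CPM in Eff+ libraries, against 9.85, 5.75 and 6.79 CPM in Eff- libraries. The groups overlapped, and the log2 fold change of -0.60 (SE 0.42) did not pass (edgeR adjusted p = 0.39). Its sign was negative in every alternative run, between -1.08 and -0.31. Of its 1732 exon bases, 159 (9.18%) are shared with Plppr3 on the opposite strand, which had 48, 49 and 108 counts in Eff+ and 192, 74 and 132 in Eff- libraries, and the counting did not separate strands. The other 3 azurophil genes were too low to be tested in the wound.

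Mpo, which encodes myeloperoxidase, the enzyme that makes hypochlorous acid (chromosome 11, 87684407 to 87695239), had 7, 38 and 0 counts in Eff+ libraries, against 3, 12 and 2 in Eff- libraries. Elane, neutrophil elastase (chromosome 10, 79722081 to 79724049), had 22, 6 and 4 counts in Eff+ libraries, against 18, 0 and 8 in Eff- libraries. Ctsg, cathepsin G (chromosome 14, 56337338 to 56340031), had 4, 0 and 0 counts in Eff+ libraries and 0 in all 3 Eff- libraries. In all 3 genes the groups overlapped. For Ctsg, 4 counts in all against 0 is too few to read a difference from.

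The wound calls depended on Eff+ library 2. When it was left out, edgeR called 0 of 15804 genes, the lowest adjusted p being 0.058, although 3260 genes had an unadjusted p under 0.05. With the pair numbered 2 left out, the count was again 0 (lowest adjusted p 0.20, 2212 genes at an unadjusted p under 0.05). The 4 called granule genes then kept positive log2 fold changes without passing. Without Eff+ library 2, Mmp9 was at 1.70 (adjusted p = 0.062), Ngp at 2.69 (0.068), Lcn2 at 2.09 (0.091) and Ltf at 2.18 (0.093). Leaving out Eff- library 2 kept only Mmp9, and leaving out Eff+ library 3 kept Mmp9 and Ngp. Without Eff- library 1, Lcn2 was lost (2.26, adjusted p = 0.063).

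**Figure D2:**
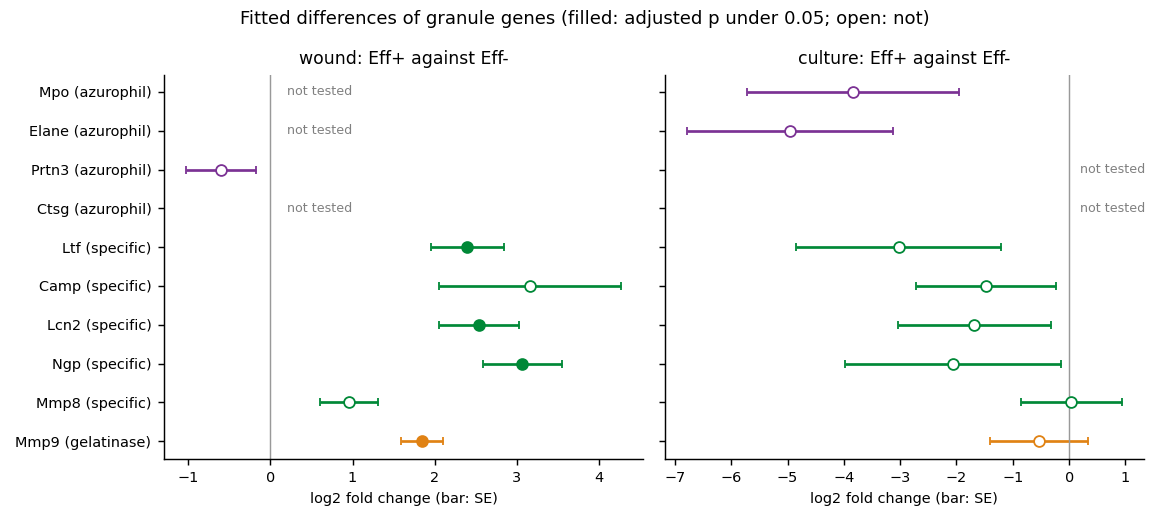
Log2 fold changes of Eff+ over Eff- from edgeR, with bars for 1 SE, in the wound (left) and in culture (right); filled points have an adjusted p under 0.05. In the wound Ltf, Lcn2, Ngp and Mmp9 are filled, between 1.85 and 3.07, and Prtn3 lies at -0.60; in culture all points are open, and Mmp8 lies at 0.04.

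Levels of different genes can be compared only per length of transcript, here as CPM per kilobase of exon. In wound Eff+ libraries Mmp9 (mean 210 CPM per kilobase) and Mmp8 (202) were highest and overlapped, followed by Lcn2 (122), whose highest library reached into the Mmp8 range, and Ngp (75.9), which overlapped with Lcn2. Ltf (12.8) and Camp (8.66) overlapped below them, and Prtn3 (2.83) overlapped with neither. Elane (0.241), Mpo (0.0947) and Ctsg (0.0292) closed the order, each overlapping its neighbour. In wound Eff- libraries the order was Mmp8 (104), Mmp9 (58.3), Lcn2 (21.1), Ngp (9.05), Prtn3 (4.31), Ltf (2.44) and Camp (0.970). There Mmp8 overlapped with Mmp9, Ngp with Prtn3, Prtn3 with Ltf, and Ltf with Camp. Prtn3 thus stood below Camp in every Eff+ library and above it in every Eff- library.

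Granule makeup can be read as the share of each class in the summed CPM per kilobase of the 10 genes. Specific granule genes made up 66.0 to 66.7% in wound Eff+ and 61.7 to 72.9% in wound Eff- libraries, so that share overlapped. Mmp9 made up 33.0 to 33.1% in Eff+ and 25.7 to 34.5% in Eff- libraries. The azurophil share was 0.288 to 0.869% in Eff+ and 1.39 to 3.74% in Eff- libraries, with no overlap and nearly all of it from Prtn3. Within the specific class, Mmp8 alone made up 24.0 to 38.4% of the total in Eff+ and 43.3 to 56.8% in Eff- libraries. The 4 other specific genes, a grouping chosen after the values were seen, made up 27.6 to 42.5% in Eff+ and 11.7 to 24.1% in Eff- libraries. All 10 genes together took 0.135, 0.165 and 0.143% of counts in Eff+ libraries, against 0.0515, 0.0452 and 0.0871% in Eff- libraries. As summed CPM, the specific class was at 954 ± 157 in Eff+ and 327 ± 166 in Eff- libraries, and the azurophil class at 5.50 ± 2.84 in Eff+ and 7.76 ± 2.24 in Eff- libraries.

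**Figure D3:**
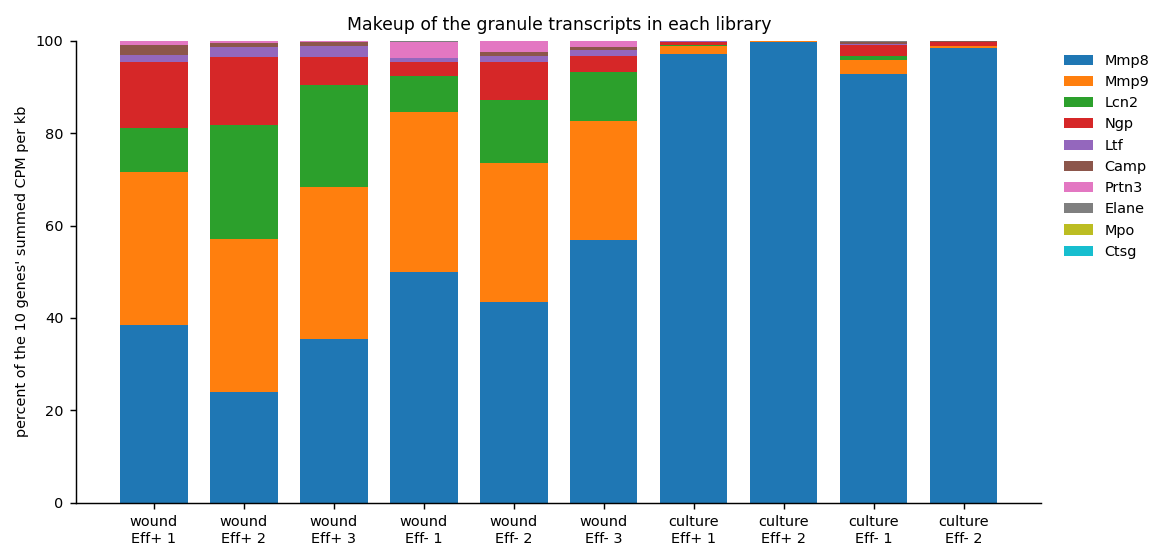
Share of each granule gene in the summed CPM per kilobase of the 10 genes, in percent, for each library. Mmp8 fills 24.0 to 38.4% of the wound Eff+ bars, 43.3 to 56.8% of the wound Eff- bars and 92.8 to 99.8% of the culture bars.

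The mature neutrophil markers moved in the same libraries, so each granule gene was also set against their summed CPM, as a description. Per 1000 CPM of the 14 markers, Ltf was at 0.556 to 1.16 CPM in Eff+ and 0.374 to 1.31 in Eff- libraries, Lcn2 at 2.74 to 9.50 in Eff+ and 2.94 to 8.66 in Eff-, and Ngp at 1.03 to 2.62 in Eff+ and 0.547 to 2.45 in Eff-. On that scale the groups overlapped for these 3 genes and for Camp (0.101 to 0.187 in Eff+ and 0 to 0.1502 in Eff-). Mmp8 was at 10.2, 8.53 and 12.0 in Eff+ libraries, against 17.4, 25.6 and 38.3 in Eff- libraries. Mmp9 was at 12.8, 17.1 and 16.4 in Eff+ libraries, against 17.5, 26.0 and 25.4 in Eff- libraries. Prtn3 was at 0.143, 0.0853 and 0.0661 in Eff+ libraries, against 0.870, 0.986 and 0.639 in Eff- libraries. For these 3 genes every Eff+ library was lower than every Eff- library, the gap for Mmp9 being narrow. All 14 markers rose (median log2 fold change 2.62), so a gene with a smaller change tends to come out lower on that scale. The share of all genes that do so was not computed, so it is not known whether the pattern is particular to these genes. Which cells the transcripts came from was not tested.

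**Figure D4:**
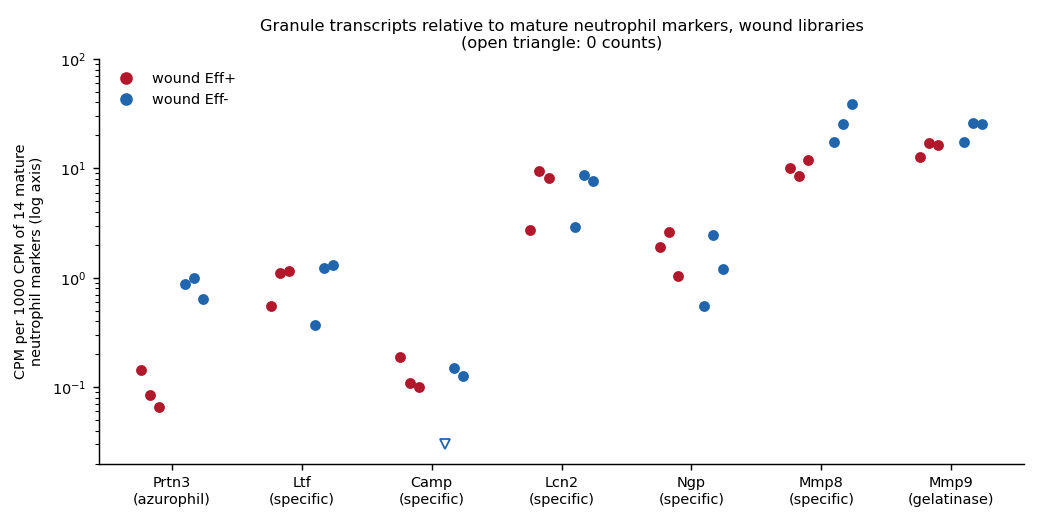
Granule gene CPM per 1000 CPM of 14 mature neutrophil markers in each wound library, on a log axis; the open triangle is a library with 0 counts. Prtn3, Mmp8 and Mmp9 are lower in all Eff+ than in all Eff- libraries, while Ltf, Camp, Lcn2 and Ngp overlap. The markers themselves rose in Eff+ libraries, so a gene with a smaller change tends to come out lower.

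Genes that share granules with the 10 were read from the same fit, in which 7.39% of all 14908 tested genes rose and 3.79% fell. Of 17 further specific and gelatinase granule genes 7 rose and 0 fell in wound Eff+ cells, with a median log2 fold change of 1.06. Olfm4, which encodes olfactomedin 4 of a subset of neutrophils, rose by 2.78 on the log2 scale (SE 0.32), with means of 39.7 ± 14.9 CPM in Eff+ and 5.78 ± 1.31 CPM in Eff- libraries. Pglyrp1, a peptidoglycan-binding protein, rose by 2.41 (SE 0.33), Qsox1, a sulfhydryl oxidase, by 1.96 (SE 0.23), and Mmp25, a membrane-bound metalloproteinase, by 1.87 (SE 0.22). As a sum that list took 0.680 to 0.773% of raw library counts in Eff+ and 0.738 to 0.803% in Eff- libraries. These shares are without TMM scaling, unlike the fold changes, so the 2 cannot be set against each other. Of 5 tested further azurophil genes only Srgn, the proteoglycan that packs granule proteases, rose (1.66, SE 0.24, with 8143 ± 1230 CPM in Eff+ and 2582 ± 601 CPM in Eff- libraries). Ctsc, the peptidase that activates the azurophil proteases, was at 1736 ± 359 CPM in Eff+ and 2854 ± 413 CPM in Eff- libraries and did not pass (-0.72, SE 0.22, edgeR adjusted p = 0.075). Bpi was at 0 counts in every wound library.

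Inhibitors and receptors of granule proteins were tested in the wound as well, where 7.39% of all 14908 tested genes rose and 3.79% fell. Of 8 tested inhibitors only Slpi, the secretory leukocyte protease inhibitor, which blocks elastase and cathepsin G, rose. It was at 5825 ± 1414 CPM in Eff+ and 1373 ± 415 CPM in Eff- libraries (2.09, SE 0.29, edgeR adjusted p = 0.0098). The tissue inhibitors of metalloproteinases Timp1 (0.16, adjusted p = 0.83) and Timp2 (-0.46, adjusted p = 0.11) did not pass. Of 4 tested receptors, the formyl peptide receptors Fpr1 (2.06, SE 0.28) and Fpr2 (1.96, SE 0.21), the second of which binds cathelicidin peptides, rose. Lrp1, an endocytic receptor that clears lactoferrin and Mmp9, fell by 0.97 (SE 0.26, edgeR adjusted p = 0.049).

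Of 8 tested transcription factor genes of granule gene expression 4 rose and 1 fell in wound Eff+ cells. Among all 14908 tested genes 7.39% rose and 3.79% fell. Cebpe, the factor required for specific granules, rose by 1.41 (SE 0.33), at 10.8 ± 3.03 CPM in Eff+ and 4.07 ± 1.11 CPM in Eff- libraries. Cebpb rose by 1.30 (SE 0.20) and Klf5 by 2.91 (SE 0.54). Cebpa, which acts at the start of the granulocyte lineage, fell by 0.95 (SE 0.25), at 7.84 ± 1.77 CPM in Eff+ and 15.1 ± 1.82 CPM in Eff- libraries. Myb, active in progenitors, had 36, 29 and 27 counts in Eff+ libraries and 0 in all 3 Eff- libraries, at least 32.7-fold higher against a floor of 3 counts over the group. None of 6 proliferation genes was called in the wound by edgeR (the lowest adjusted p was 0.56, with 0 at an unadjusted p under 0.05), and Mki67 was at 19.9 ± 3.32 CPM in Eff+ and 22.9 ± 3.52 CPM in Eff- libraries. Of 7 tested monocyte and progenitor genes Irf8 fell by 0.89 (SE 0.19).

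Granule genes of other leukocytes and markers of skin cells were checked beside them. Of 4 tested eosinophil genes 2 rose and 0 fell, against 7.39% and 3.79% of all tested genes. Prg2 had 102, 36 and 12 counts in Eff+ libraries and 0 in all Eff- libraries (at least 53.3-fold higher), and Siglecf rose by 2.48 (SE 0.50). Ear2, with the highest mean CPM of that list, was not called (-0.19, SE 0.48, at 19.0 ± 7.65 CPM in Eff+ and 21.6 ± 13.1 CPM in Eff- libraries). Ear6 was not called either (2.15, SE 1.27), and Epx was at 0 in every wound library. Of 5 tested mast cell and basophil genes 0 were called, with Cpa3 at 14.04 ± 13.4 CPM in Eff+ and 12.3 ± 21.3 CPM in Eff- libraries. Of 3 tested keratinocyte genes Krt14 and Krt5 were called, at least 502-fold and 202-fold higher against 0 counts in Eff- libraries. Krt10 was not called (0.07, SE 0.68). The fibroblast gene Col6a3 rose by 2.07 (SE 0.50), 1 of 7. These called genes lost their calls without Eff+ library 2, as did every wound gene, and the part of these cell types in the granule gene results was not tested.

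Of the specific granule genes 3 lie on chromosome 9 within 1169.65 kb, in the order Camp, Ngp and Ltf (GRCm39). Ngp is 570.129 kb from Camp and 596.258 kb from Ltf. Of the 51 other genes between Camp and Ltf 18 were tested in the wound, and their median log2 fold change was -0.09. Among these 18, 1 (Nbeal2) rose and 0 fell, against 7.39% and 3.79% of all tested genes. The azurophil genes Prtn3 and Elane lie 3.072 kb apart on chromosome 10 with no gene between them, and their wound counts differed: 668 in Eff+ and 1094 in Eff- libraries for Prtn3, against 32 in Eff+ and 26 in Eff- libraries for Elane.

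The second question was whether the granule genes differed in the same way in cultured macrophages. They did not pass there: edgeR called 0 of 14867 genes, or 0%, the lowest adjusted p being 1.0 and 115 genes having an unadjusted p under 0.05. DESeq2 called 1 gene and limma-voom 0. Of the 10 genes 8 could be tested and 0 were called. In 7 of the 10 both Eff+ libraries were below both Eff- libraries, and in 0 both were above. In Lcn2, Mmp8 and Mmp9 the groups overlapped. Among tested genes 20.7% were without overlap (9.42% below and 11.3% above). The 7 include Prtn3 and Ctsg, which were too low to be tested in culture and are not part of those shares. Eff+ library 2 was at 0 counts for Mpo, Elane, Prtn3, Ltf and Ngp.

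Mmp8 was by far the most abundant granule transcript in culture. It was at 1548 and 3036 CPM in Eff+ libraries 1 and 2, against 1025 and 3438 CPM in Eff- libraries. The libraries numbered 2 were higher in both groups, and the groups overlapped (means 2292 ± 1052 and 2231 ± 1706 CPM, SD, n = 2 each). The log2 fold change was 0.04 with an SE of 0.90, so that even a large difference in either direction could not have been told from none. Culture and wound tables were scaled apart, so levels are only set side by side: Mmp8 was at 945 CPM per kilobase in culture Eff+ and 920 in culture Eff-, beside 202 in wound Eff+ and 104 in wound Eff- libraries. No other granule gene exceeded 14.1 CPM per kilobase in any culture library.

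Mmp9 was at 39.6 and 8.43 CPM in culture Eff+ libraries, against 49.96 and 19.9 CPM in Eff- libraries. Here the libraries numbered 1 were higher in both groups, the reverse of Mmp8 (log2 fold change -0.54, SE 0.87). Lcn2 was at 3.46 and 0.249 CPM in Eff+ libraries, against 9.25 and 2.70 CPM in Eff- libraries, and the groups overlapped (-1.68, SE 1.36). Neither gene passed.

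The other specific granule genes were low in culture, and Eff+ library 2 was lowest for each. Ngp was at 6.54 and 0 CPM in Eff+ libraries, against 13.8 and 13.7 CPM in Eff- libraries (170 and 0 counts against 307 and 263). Its log2 fold change of -2.06 had an SE of 1.92, and without Eff+ library 1 it was -11.2 and passed (edgeR adjusted p = 0.0055), a value fitted against a single library at 0 counts. Ltf had 17 and 0 counts in Eff+ libraries, against 68 and 46 in Eff- libraries (-3.03, SE 1.82). Camp had 16 and 4 counts in Eff+ libraries, against 26 and 20 in Eff- libraries (-1.48, SE 1.24). For these 3 genes the groups did not overlap, and none passed in the comparison of all 4 libraries.

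The azurophil genes were near the floor in culture Eff+ libraries and slightly above it in Eff- libraries. Elane had 1 and 0 counts in Eff+ libraries, against 16 and 16 in Eff- libraries, a ratio of 0.0259 (95% exact binomial interval 0.00064 to 0.155, counting error only). Mpo had 2 and 0 counts in Eff+ libraries, against 13 and 13 in Eff- libraries, a ratio of 0.0638 (0.0073 to 0.255). Both genes were thus counted mainly in Eff- libraries, without passing the test across libraries (edgeR adjusted p = 1.0). Prtn3 had 3 and 0 counts in Eff+ libraries, against 26 and 9 in Eff- libraries, a ratio of 0.0711 (0.014 to 0.226). Plppr3, which shares exon bases with Prtn3, had 23 and 8 counts in Eff+ and 45 and 6 in Eff- libraries. Its part in the Prtn3 counts was not tested. Ctsg had 1 and 2 counts in Eff+ libraries, against 2 and 8 in Eff- libraries, a ratio of 0.249 (0.044 to 0.967). Prtn3 and Ctsg were too low for the test across libraries. For Ctsg, 3 counts in all against 10 are too few to read a difference from. As a class the azurophil genes summed to 0.176 ± 0.132 CPM in Eff+ and 2.47 ± 0.119 CPM in Eff- libraries.

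Mature neutrophil markers were low in culture, at 0.0324 to 0.0550% of counts in Eff+ and 0.0515 to 0.0754% in Eff- libraries. All 10 tested markers had negative log2 fold changes (median -1.61, against -0.05 for all genes) and none was called. Among the most abundant, Clec4d was at 345 ± 253 CPM in Eff+ and 346 ± 390 CPM in Eff- libraries, and Trem1 at 25.2 ± 3.33 CPM in Eff+ and 83.3 ± 22.4 CPM in Eff- libraries. Macrophage markers took 0.466 to 0.793% of counts in Eff+ and 0.229 to 0.725% in Eff- libraries. Of 16 tested further specific and gelatinase granule genes 3 had positive and 13 negative values, with a median of -0.42. Of 8 tested transcription factor genes all 8 had negative values, with a median of -0.25. Per 100 CPM of the neutrophil markers, the specific class was at 487 to 507 CPM in culture Eff+ and 258 to 385 CPM in culture Eff- libraries, beside 1.55 to 2.24 in wound Eff+ and 2.12 to 4.87 in wound Eff- libraries. Without Mmp8 it was at 0.0666 to 3.67 CPM in culture Eff+ and 2.20 to 6.69 CPM in culture Eff- libraries, beside 0.538 to 1.33 in wound Eff+ and 0.386 to 1.25 in wound Eff- libraries. The marker sum was made up differently in wound and culture. By mean CPM Clec4d was the largest marker in both culture groups and S100a8 in both wound groups. S100a8 was at 12.4 ± 4.68 CPM in culture Eff+ and 19.9 ± 12.3 CPM in culture Eff- libraries. Values per marker CPM are therefore not comparable between wound and culture.

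Whether the gap between Eff+ and Eff- cells was itself different in wound and culture was tested with an interaction term across the 10 libraries. The edgeR test called 0 of 20270 genes, or 0% (lowest adjusted p 0.10, 2222 genes at an unadjusted p under 0.05), and limma-voom also called 0. All 9 granule genes tested had a positive value, meaning a higher Eff+ to Eff- ratio in the wound, while the median of all genes was 0.32. Ltf had the smallest p, with a difference of 5.42 on the log2 scale (SE 1.17, unadjusted p = 0.00072, edgeR adjusted p = 0.16). Ngp was at 5.15 (SE 1.57, adjusted p = 0.29), Lcn2 at 4.22 (SE 1.23, adjusted p = 0.28) and Mmp9 at 2.39 (SE 0.84, adjusted p = 0.34). Mmp8 was at 0.95 (SE 0.81, adjusted p = 0.70), and Prtn3 at 3.11 (SE 1.19, adjusted p = 0.38). Camp was at 4.66 (SE 1.81), Mpo at 5.41 (SE 2.93) and Elane at 5.43 (SE 2.78), and Ctsg was too low to be tested. No granule gene passed in that fit. With no filter on low counts 517 genes passed, Ltf, Ngp, Lcn2, Mmp9 and Camp among them. Each library was also left out in turn, a choice made after seeing the data, which for a culture library leaves a group of 1. Without culture Eff+ library 1 the test called 7 of 22424 genes, Ltf and Ngp among them. Without culture Eff- library 2 it called 2009 of 23641 genes, Ltf, Ngp, Lcn2 and Mmp9 among them.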

How the data were processed

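The values are raw read counts per gene, deposited by the authors with 1 column per sample. For the wound table the authors ran featureCounts 1.6.0 with default settings and no strand option on Ensembl release 106 (GRCm39), per the file headers. The culture table carries no such record. The aligner was not given in the sources used here. Trimmomatic 0.39 and GRCm39 appear in the submitters' processing notes. The culture table holds 4 more columns that could not be tied to a sample and are not analysed here. Symbols came from GENCODE vM21 (52081 of 55414 identifiers, 99.91% of counts), and promoter sequences from RefSeq.

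The 2 tables were fitted separately in edgeR 4.0.16 (R 4.3.3), using TMM scaling, filterByExpr and quasi-likelihood tests of Eff+ against Eff-, with Benjamini-Hochberg adjustment over all tested genes at 0.05. "Rose" and "fell" are used of called genes. SE, a standard error, was derived from the F statistic as the log2 change over its square root. Intervals and floors of 3 counts cover counting error only. The procedure was run on simulated counts, with pass criteria applied only where the simulated spread between libraries was set low. Counts simulated at the spread estimated from these libraries had no pass criterion, and their outcome is not reported here. Nothing is therefore said of how the tests perform at that spread. Whether replicates were separate animals or cultures is not stated, and p-values therefore reflect only the spread of these libraries, which may be technical.

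All 10 granule genes are named in each comparison. Of 13 other lists, up to 4 called genes in each direction were named by smallest p, or up to 3 of highest mean CPM where none was called, with Lyz1 and Lyz2. A few further members are named beside them for their roles, chosen after their values were seen. The granule genes and lists were chosen with earlier results of these data known. Alternatives were other scalings and filters, limma-voom (limma 3.58.1), DESeq2 1.42.0, other quasi-likelihood settings, a replicate block, and each library left out.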

Additional observations from a re-analysis of the deposited data

How the results depend on the processing

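With library totals as the only scaling, 3368 wound genes were called, 714 higher and 2654 lower in Eff+, against 1101 higher and 565 lower with TMM (median log2 fold change of all genes -0.42 against -0.03). The same 4 granule genes were called under both. DESeq2 called 3216 wound genes, and Mmp8 passed with it (0.99, adjusted p = 0.042). Camp passed with no filter on low counts (adjusted p = 0.038) and with newer quasi-likelihood settings (0.024), chosen after seeing the data. Leaving out 1 library at a time gave 0 to 1347 called wound genes, with 0 to 5 granule genes among them. Without both libraries numbered 2 there were 0 wound calls and 0 granule genes, with Ltf at 2.07, Lcn2 at 2.03, Ngp at 2.92 and Mmp9 at 1.52.

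In culture, 2 genes were called with no filter and 1 by DESeq2. Leaving out a library gave 0 to 27 called genes and 0 to 1 granule genes, and leaves 1 group as a lone library assumed to vary like the other group. Mmp8 then ranged from -0.55 to 1.46 and Mmp9 from -2.01 to 0.36. The azurophil sum in Eff- libraries was 2.62 CPM with library totals only.

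For the difference between wound and culture, 517 genes and 5 granule genes were called with no filter. Leaving out a library gave 0 to 2009 genes and 0 to 4 granule genes, with Mmp8 between -0.23 and 1.54. Without both culture libraries numbered 1, 7 genes were called.

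Deviations of same-numbered Eff+ and Eff- libraries from their group means correlated at 0.41, 0.0173 and 0.234 in the wound. Differently numbered wound pairs lay between -0.348 and 0.152, and those of 2 with 3 (0.152) and 3 with 2 (0.147) exceeded the pair numbered 2. In culture the same-numbered value was 0.739, where deviations of 2 against 2 libraries mirror each other. No label pairs same-numbered libraries. With the replicate number as a block edgeR called 2985 wound genes, with 5 granule genes among them (Mmp8 added), 48 culture genes with 0, and 441 genes with 3 (Ltf, Lcn2 and Mmp9) for the difference between models. In every setting run, each tested granule gene kept the sign of its wound value. The cause of these changes was not tested. At this depth 3 azurophil genes in the wound and 2 in culture had too few counts to be tested.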
